A study of Mus musculus with 8 samples.

Results

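The addition of T-bet to cells that already expressed GATA3 was examined in EL4 cells, a mouse C57BL/6 line of T lymphoblast (lymphoma) origin. The 4 libraries were chosen by their labels from the 8 libraries of the series: 2 of the line T-bet + GATA3, which carries retroviral FLAG-T-bet and HA-GATA3, and 2 of the line GFP + GATA3, which carries GFP in place of T-bet together with the same HA-GATA3. Cells of both lines received PMA (50 ng/ml) together with ionomycin (1 uM) for 4 h before RNA-seq, so the GATA3 vector and the stimulation are shared by both sides of the comparison. The other 4 libraries come from lines with the fluorescent protein Plum in place of HA-GATA3, T-bet + Plum and GFP + Plum. They share the fit, with its filter and its estimate of the spread. Their values are printed where the effect of T-bet without GATA3 is set beside that with GATA3. According to the study EL4 cells express endogenous Gata3, so "without GATA3" below means without the GATA3 vector. Each line is a single population of transduced cells and its replicates are harvests of that line on separate days according to the study's methods, so the addition of T-bet and any other difference between the lines cannot be told apart, and the p-values measure the spread between harvests. EL4 is a tumour line kept outside an animal, and the vector drives both factors without the control that a differentiating T cell has over them.

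T-bet, encoded by Tbx21, is the T-box transcription factor that directs CD4+ T cells to the TH1 fate, in which they secrete IFN-γ, and GATA3 is the zinc finger factor that directs the TH2 fate, in which they secrete IL-4, IL-5 and IL-13. IFN-γ acts back on cells through its receptor and JAK kinases, and so switches on guanylate-binding proteins, immunity-related GTPases and the machinery of antigen presentation. T-bet is also known in cytotoxic T cells and NK cells, where it supports granzymes, chemokines and lectin-like receptors. Activated T cells can hold both T-bet and GATA3, and the comparison asks which genes differ when T-bet is added to cells that have GATA3.

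The libraries of the series held 8038284 to 16003190 estimated counts, and the 4 libraries compared here 9807601 to 15508355. Levels are given as CPM, read counts scaled to the normalised library size, replicate 1 before replicate 2 with n = 2 a line, and 3 counts corresponded to 0.187 to 0.373 CPM over the series. Of 54146 genes, 14791 had enough counts to be tested. Mitochondrial genes took 2.24 to 2.88% of the counts, and the most abundant gene, which overlaps ribosomal RNA sequence, took 10.4% in T-bet + GATA3 replicate 1 and 7.92 to 9.43% in the other libraries. T cell markers summed to 1342 to 1410 CPM in GFP + GATA3 and 1708 to 1833 CPM in T-bet + GATA3, with 10 of 11 markers tested and 3 of them higher (Cd5, Zap70 and Cd2), whereas Cd247, which encodes the CD3 zeta chain, stayed under 1 CPM. The defining B cell marker Cd79b, the granulocyte markers Elane, S100a8 and S100a9, the NK cell markers Ncr1, Klrb1c and Klra8, the epithelial markers Epcam and Krt8 and 4 of 4 erythroid markers were at 0 counts in the 4 libraries, and none of 9 macrophage and granulocyte markers reached 1 CPM. Because RNA was measured in bulk, a higher share of cells with a transcript and more of it per cell cannot be told apart.

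Tbx21 itself was at 2.01 and 2.22 CPM in the GFP + GATA3 libraries and at 135 and 160 CPM in the T-bet + GATA3 libraries. The lines did not overlap and the log2 fold change (log2 FC, T-bet + GATA3 minus GFP + GATA3) was 6.11 (SE 0.31, FDR = 7.1e-05 by the quasi-likelihood test of edgeR over all genes tested). Gata3 was at 283 and 326 CPM without T-bet and at 204 and 165 CPM with it, a log2 FC of -0.73 (SE 0.20) that did not pass the test (FDR = 0.0789), although the lines did not overlap and Gata3 passed in 5 of 17 alternatives (FDR from 0.0007 to 0.38), with a lower level with T-bet in each. The counts do not separate introduced from endogenous transcripts of either gene, so these values include the vectors' RNA. Among all genes tested, 25.4% had both T-bet + GATA3 libraries below both GFP + GATA3 libraries, as Gata3 did.

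With T-bet, 551 genes rose and 303 fell at an FDR of at most 0.05, which are 3.73% and 2.05% of the genes tested. At an unadjusted p under 0.05 there were 2897 genes. At the stricter threshold that also asks for a log2 FC above 1.5 in size, 294 genes were up (1.99%) and 127 were down (0.859%). The changes were large: 73 genes were up by more than 5 on the log2 scale and 11 were down by more than 5, and in 137 of the 294 genes that were up the mean level without T-bet was under 1 CPM. The median log2 FC was 2.98 among the genes up and -2.71 among those down, against 0.01 over all genes tested. Protein-coding genes made up 258 of the 294 and 112 of the 127. The number of calls depended on which library was left out: without GFP + GATA3 replicate 2 it was 174 up and 76 down at the FDR alone and 143 and 54 at the stricter threshold, without GFP + GATA3 replicate 1 it was 197 and 111 at the FDR alone, without T-bet + GATA3 replicate 1 it was 293 and 142, and without T-bet + GATA3 replicate 2 it was 401 and 320. Leaving out a library of the Plum lines gave 652 to 1021 genes in both directions at the FDR alone. With scaling by library size only, which shifts the median of all genes to -0.07, 491 genes rose and 422 fell at the FDR alone.

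**Figure D1:**
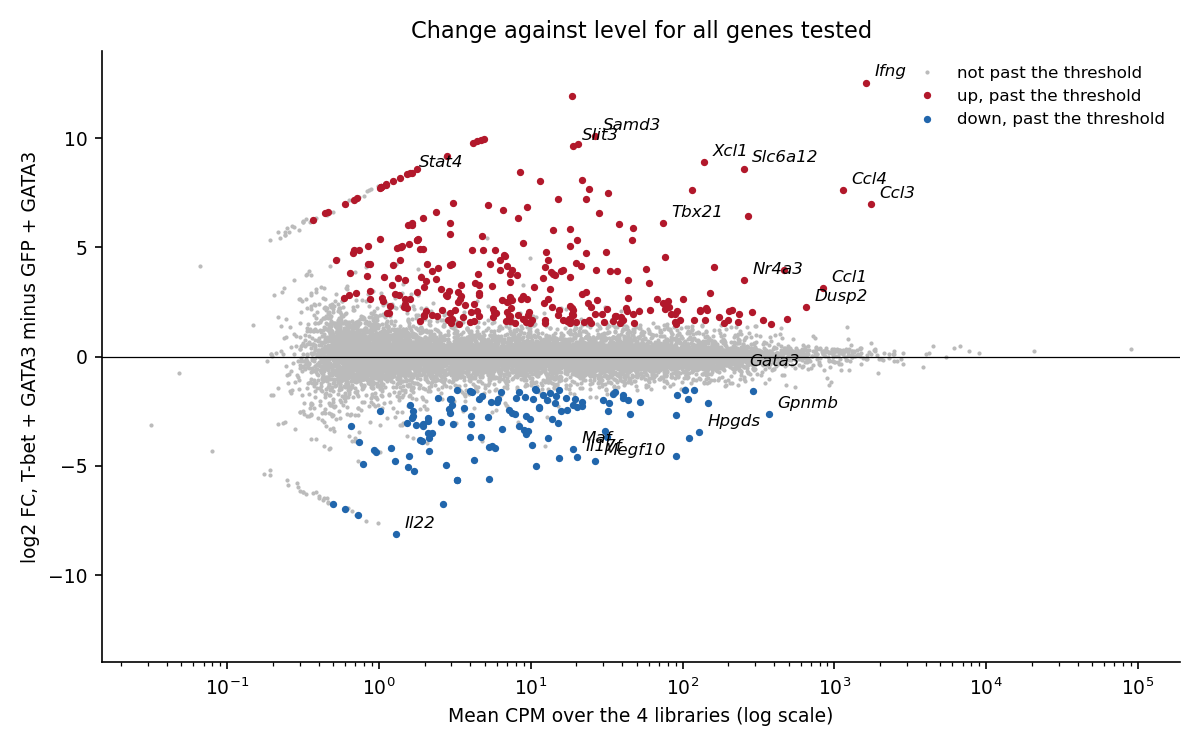
Log2 FC (T-bet + GATA3 minus GFP + GATA3) of the 14791 genes tested against their mean CPM over the 4 libraries, on a log axis. Genes up (294, red) reach 12.54 on the log2 scale for Ifng, and genes down (127, blue) reach -8.11 for Il22, which had 0 counts with T-bet; the straight rows of points at the upper and lower left are genes with 0 counts in 1 line, whose fitted values depend on the model's prior count.

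Ifng, which encodes IFN-γ, was the gene with the largest rise of all. It was at 0.574 and 0.507 CPM in the GFP + GATA3 libraries and at 3476 and 3014 CPM in the T-bet + GATA3 libraries, a log2 FC of 12.54 (SE 0.41, FDR = 6.2e-06). On the length-corrected TPM scale it stood at 4206 and 4595 in the T-bet + GATA3 libraries, where it ranked 9 and 8 among protein-coding genes, and at ranks 9543 and 9841 in the GFP + GATA3 libraries. The gene lies on the plus strand at chr10:118441046-118445892 (GRCm38), and an unprocessed transcript model inside it on the same strand, RP23-353P23.2, held 0 counts without T-bet and rose with it; reads of these overlapping genes cannot be separated with certainty. The next gene on that chromosome with a large change, Il22, went the other way, as given below.

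Ifng had the largest rise, and Xcl1, a chemokine described below, was another gene that was under 1 CPM without T-bet and among the abundant ones with it. Their RefSeq promoters (GRCm38.p6, from 250 bases before the start site to 50 bases after it) are shown to make the sequence at these start sites visible, in lower case with T-box letters in capitals. T-box letters were searched as GGTGTG and as the longer GGTGTGA, on both strands, so that the longer matches are a part of the shorter. The Ifng window (chr10:118440796-118441095, plus strand) holds neither, and the Xcl1 window (chr1:164935473-164935772, minus strand) holds GGTGTG at 2 places, of which 1 reads GGTGTGA.
Ifng: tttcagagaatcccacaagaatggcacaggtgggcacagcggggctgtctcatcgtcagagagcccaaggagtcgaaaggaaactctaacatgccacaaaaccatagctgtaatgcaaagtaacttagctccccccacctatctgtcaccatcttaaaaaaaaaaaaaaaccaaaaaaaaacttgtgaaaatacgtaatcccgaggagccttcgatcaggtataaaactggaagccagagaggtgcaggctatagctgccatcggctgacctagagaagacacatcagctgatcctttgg
Xcl1: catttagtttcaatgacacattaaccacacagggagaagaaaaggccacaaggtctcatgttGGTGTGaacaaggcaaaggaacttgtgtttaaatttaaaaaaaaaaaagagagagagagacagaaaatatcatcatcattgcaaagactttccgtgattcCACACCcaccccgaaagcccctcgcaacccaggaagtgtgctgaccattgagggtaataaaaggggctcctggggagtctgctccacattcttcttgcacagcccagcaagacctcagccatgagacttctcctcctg

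The secreted cytokines changed in both directions. Of 31 measured, 20 were tested, 5 rose and 3 fell, and the median log2 FC was 0.54. Csf2, which encodes the myeloid growth factor GM-CSF, was at 29.7 and 6.15 CPM without T-bet and at 288 and 317 CPM with it, a log2 FC of 4.12 (SE 0.74, FDR = 0.016) whose call was lost without GFP + GATA3 replicate 2 or T-bet + GATA3 replicate 1 (FDR of up to 0.055 when libraries were left out). Il2, the T cell growth factor, was at 80.5 and 74.0 CPM without T-bet and at 266 and 383 CPM with it (log2 FC 2.07, SE 0.25, FDR = 0.0032). Il18, whose product co-stimulates IFN-γ release, was at 3.64 and 3.80 CPM against 17.0 and 14.3 CPM (log2 FC 2.06, SE 0.25), and Tnf rose by 0.91 (SE 0.12) from 190 and 176 CPM to 349 and 340 CPM. In each of these genes both T-bet + GATA3 libraries stood above both GFP + GATA3 libraries, as in 26.5% of all genes tested.

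The 3 cytokines that fell were Il22, Il17f and Csf1. Il17f, a TH17 cytokine, was at 45.3 and 32.7 CPM without T-bet and at 1.51 and 1.66 CPM with it (log2 FC -4.59, SE 0.32, FDR = 0.0002). Il22, which lies at chr10:118204942-118210047 on the same strand as Ifng and acts on epithelia, was at 1.63 and 3.55 CPM without T-bet and at 0 counts in both libraries with T-bet, at least 22.5-fold lower when set against 3 counts over the group (FDR = 0.0134, lost without GFP + GATA3 replicate 2, where it was up to 0.084). Csf1, the macrophage growth factor, was at 11.6 and 13.9 CPM against 3.24 and 1.20 CPM (log2 FC -2.59, SE 0.43). When GFP + GATA3 replicate 2 was left out, 3 cytokines rose and 1 fell.

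The TH2 cytokines were low or uneven. Il4 was at 0 and 0.761 CPM without T-bet and at 2.70 and 1.53 CPM with it (log2 FC 2.27, SE 0.96, FDR = 0.254). Il5 was at 4.02 and 16.8 CPM without T-bet and at 97.2 and 5.59 CPM with it, so that the lines overlapped and a single library, T-bet + GATA3 replicate 1, was far above the rest. Its log2 FC of 2.25 (SE 1.18) did not pass the test (FDR = 0.351) and turned negative without that library. Il13 had 0 and 2 counts without T-bet and 0 and 6 with it and was not tested, and Il10 was at 3.45 and 2.85 CPM against 2.27 and 0.0665 CPM (log2 FC -1.57, SE 1.11, FDR = 0.499).

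Chemokine ligands, which draw other leukocytes to the cell, also rose. Of 25 measured, 10 were tested, 5 rose and none fell, the median log2 FC was 3.51 (2.03 without a filter on low counts), and Xcl1, Ccl4, Ccl3, Ccl9 and Ccl1 were each called in every alternative that tested them. Ccl3, a ligand of CCR1, was at 33.0 and 21.9 CPM without T-bet and at 3906 and 2994 CPM with it (log2 FC 6.98, SE 0.34, FDR = 7.1e-05). Its neighbour Ccl4 was at 13.6 and 9.57 CPM against 2434 and 2128 CPM (log2 FC 7.63, SE 0.45). On the TPM scale Ccl3 ranked 7 and 9 and Ccl4 ranked 11 and 11 among protein-coding genes in the T-bet + GATA3 libraries, beside Ifng. Xcl1, the ligand of XCR1 on cross-presenting dendritic cells, was at 0.574 and 0.571 CPM against 309 and 247 CPM (log2 FC 8.90, SE 0.29). Ccl9 (5.32, SE 0.72) and Ccl1 (3.15, SE 0.22), a ligand of CCR8, rose less. Ccl5 was at 20.2 and 12.3 CPM against 89.0 and 48.5 CPM, without overlap (as in 26.5% of all genes tested), and did not pass (log2 FC 2.09, SE 0.56, FDR = 0.0734).

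**Figure D2:**
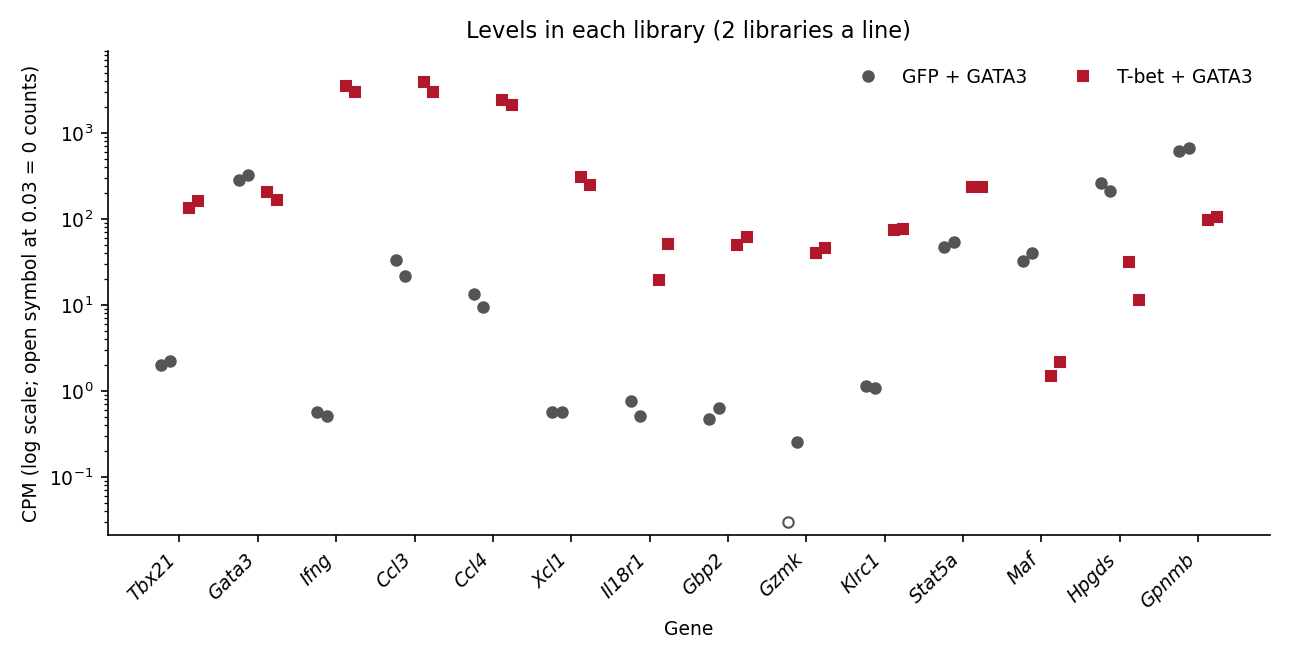
CPM of 14 genes in each of the 4 libraries on a log axis, with 2 points a line for GFP + GATA3 (grey circles) and T-bet + GATA3 (red squares) and open symbols for libraries with 0 counts. Ifng, Ccl3, Ccl4 and Xcl1 lie between 247 and 3906 CPM with T-bet and between 0.507 and 33.0 CPM without it, Gata3 differs least, and Maf, Hpgds and Gpnmb are lower with T-bet.

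Chemokine and homing receptors split by direction. Of 14 tested, 6 rose (among them Gpr183, Ccr8, Cxcr6 and Cxcr3) and 2 fell (Ccr4 and Ccr9), with a median log2 FC of 1.79 that was -0.34 over the 10 receptors with at least 10 counts in every library. Ccr8, usually counted among TH2 receptors, rose from 1.34 and 2.03 CPM to 26.4 and 24.5 CPM (log2 FC 3.88, SE 0.36). Cxcr3, the TH1 receptor for IFN-γ-induced chemokines, was at 43.7 and 29.8 CPM against 132 and 148 CPM (log2 FC 1.94, SE 0.45, FDR = 0.0459, lost in each fit without a library of the pair). Ccr4, another TH2 receptor, was at 43.5 and 52.1 CPM without T-bet and at 13.5 and 10.8 CPM with it (log2 FC -1.98, SE 0.22). Gpr183, which guides cells to oxysterols, had 2 counts in all without T-bet and stood at 3.68 and 3.33 CPM with it, a ratio of 45.3 with a counting interval of 12.2 to 381. Without GFP + GATA3 replicate 2, 2 receptors rose and 1 fell, and of the receptors named here Ccr8 and Ccr4 were called in each fit without a library.

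Cytokine receptors also moved both ways, with 7 of 25 tested rising, 6 falling and a median log2 FC of 0.29. The IL-18 receptor chains rose together with the IL-33 receptor gene that lies beside them: Il18r1 went from 0.766 and 0.507 CPM to 19.7 and 51.7 CPM (log2 FC 5.85, SE 0.55, FDR = 0.001). Il18rap went from 1.63 and 2.16 CPM to 6.16 and 19.4 CPM (2.75, SE 0.52), and Il1rl1, the IL-33 receptor of TH2 cells, from 0.479 and 0.761 CPM to 3.68 and 6.65 CPM (3.02, SE 0.45). Il12rb1, a chain of the IL-12 receptor that feeds STAT4, was at 3.54 and 2.79 CPM against 10.3 and 12.8 CPM (1.88, SE 0.28), while its partner Il12rb2 was too low to test. Il4ra, the IL-4 receptor chain, rose by 1.90 (SE 0.20), from 5.65 and 7.10 CPM to 26.9 and 21.1 CPM.

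Among the receptors that fell was Ifngr2, the signalling chain of the IFN-γ receptor, at 6.99 and 14.01 CPM without T-bet and at 0.973 and 0.333 CPM with it (log2 FC -4.11, SE 0.56, FDR = 0.0051). It fell in the same libraries in which Ifng and the IFN-γ-inducible genes described next were high. Il1r1, the IL-1 receptor, was at 5.55 and 7.36 CPM against 0 and 0.200 CPM, with 3 counts in all with T-bet, a ratio of 53.7 with a counting interval of 18.1 to 263. Il7r, the receptor for the survival cytokine IL-7, was at 19.0 and 15.7 CPM against 4.11 and 0.931 CPM (log2 FC -2.87, SE 0.54), and Il6ra fell by 1.81 on the log2 scale. Tgfbr1 and Tgfbr2, the chains of the TGF-β receptor, fell by 1.18 and 0.88. The shared gamma chain Il2rg was at 128 and 122 CPM against 129 and 141 CPM (log2 FC 0.11, SE 0.12, FDR = 0.671). Without GFP + GATA3 replicate 2, 2 of these receptors rose and 2 fell, and Il18r1, Il4ra, Ifngr2 and Tgfbr1 were called in each fit without a library.

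Members of 3 lists of genes known to be induced by interferon rose, and none of the tested members fell at an FDR of at most 0.05. Of 16 interferon-inducible GTPases tested, which attack the vacuoles of intracellular pathogens, 12 rose with a median log2 FC of 3.89, against a median of 0.01 over all genes. Most were near 0 without T-bet, and of the 3 with at least 10 counts in every library 3 rose with a median of 2.36. The log2 FC was below 0 in 1 of the 16 (-1.65). Of 32 other interferon-stimulated genes tested, 11 rose and 21 did not pass (median 1.02), and the log2 FC was below 0 in 3 (lowest -2.99). Of 27 antigen presentation genes tested, 13 rose (median 0.95), and the log2 FC was above 0 in 27 of 27, as in 51.4% of all genes tested. Without T-bet + GATA3 replicate 1 these counts were 8, 6 and 7, and without GFP + GATA3 replicate 1 they were 9, 3 and 3.

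Of the GTPases, Gbp2 was at 0.479 and 0.634 CPM without T-bet and at 49.9 and 61.0 CPM with it (log2 FC 6.58, SE 0.57, FDR = 0.00067). Iigp1 was at 0.287 and 0.127 CPM against 23.6 and 37.0 CPM (7.24, SE 0.55), and Igtp at 2.30 and 1.40 CPM against 19.4 and 24.8 CPM (3.61, SE 0.32). Tgtp1 and Ifi47 had 0 counts without T-bet and stood at 7.89 and 9.91 CPM and at 7.46 and 9.11 CPM with it, at least 79.9-fold and 74.1-fold higher when set against 3 counts over the group. Tgtp1 and Tgtp2 are near-identical copies, so the split of reads between them is uncertain.

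The promoters of the GTPases share a stretch of letters. These genes were listed because interferon is known to induce them, so the stretch is not independent of that choice. The letters GAAA, any 2 bases and GAAA again, the core of the interferon-stimulated response element that IRF and ISGF3 complexes bind, were searched on both strands after the values had been seen, with overlapping matches counted apart. They stood in 9 of the 10 tested GTPases that matched a RefSeq promoter (90%), in 10 of 22 matched interferon-stimulated genes (45.45%) and in 5 of 21 matched antigen presentation genes (23.81%), against 3.443% of all 32851 promoters. The windows of Igtp and Irgm2, and of Tgtp1 and Tgtp2, are nearly identical, so the 9 are not separate observations. The RefSeq start used lies 15359, 2956 and 1926 bases from the Gencode start for Irgm2, Gbp5 and Tgtp1. The stretches around the spaced letters are shown for the 9 GTPases to make the shared letters visible, with the match in capitals (read on the other strand, it begins with TTTC) and flanking bases in lower case, each 5′ to 3′ on the strand of the gene. These are Gbp2 (chr3:142620584-142620633, +), Gbp3 (chr3:142559979-142560028, +), Gbp5 (chr3:142496749-142496798, +), Gbp7 (chr3:142530263-142530312, +), Igtp (chr11:58199502-58199551, +), Irgm1 (chr11:48871421-48871470, -), Irgm2 (chr11:58214893-58214942, +), Tgtp1 (chr11:48992294-48992343, -) and Tgtp2 (chr11:49064253-49064302, -).
Gbp2: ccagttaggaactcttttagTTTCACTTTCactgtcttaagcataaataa
Gbp3: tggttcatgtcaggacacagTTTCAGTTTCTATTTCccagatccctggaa
Gbp5: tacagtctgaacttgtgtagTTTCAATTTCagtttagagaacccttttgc
Gbp7: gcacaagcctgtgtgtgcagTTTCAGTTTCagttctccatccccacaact
Igtp: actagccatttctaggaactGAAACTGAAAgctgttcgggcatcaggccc
Irgm1: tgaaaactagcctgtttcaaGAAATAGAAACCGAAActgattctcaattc
Irgm2: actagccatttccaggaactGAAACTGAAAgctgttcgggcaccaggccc
Tgtp1: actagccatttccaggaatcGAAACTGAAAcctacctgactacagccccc
Tgtp2: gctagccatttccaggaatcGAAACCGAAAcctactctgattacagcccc
Of these 9 genes 8 rose, among them Gbp5 and Gbp7 with 1 and 3 counts in all without T-bet and calls lost in most fits without a library. Gbp3, at 0.574 and 1.59 CPM against 4.76 and 3.86 CPM, did not pass (log2 FC 1.92, SE 0.68, FDR = 0.162).

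Other interferon-stimulated genes rose by smaller folds. Ifi204, a sensor of DNA, was at 7.27 and 6.21 CPM without T-bet and at 69.0 and 148 CPM with it (log2 FC 4.02, SE 0.37, FDR = 0.00091), and its neighbour Ifi203 at 14.6 and 8.94 CPM against 60.2 and 91.0 CPM (2.70, SE 0.30). Irf1, an interferon-induced transcription factor gene, was at 13.7 and 14.6 CPM against 31.1 and 24.9 CPM (0.98, SE 0.16). In antigen presentation, the immunoproteasome subunit Psmb10 was at 11.3 and 13.0 CPM against 40.3 and 53.1 CPM (1.94, SE 0.24, FDR = 0.0037), and the peptide transporter Tap1 at 18.3 and 18.8 CPM against 37.2 and 53.5 CPM (1.29, SE 0.19). The class II genes H2-Ab1, H2-Eb1 and H2-Aa passed the test at levels between 0.865 and 5.41 CPM with T-bet, and their calls were lost in most fits without a library. The class I genes that were already abundant moved less: B2m was at 1249.8 and 1259 CPM against 1637 and 1466 CPM (log2 FC 0.31, FDR = 0.206), and H2-K1 had a log2 FC of 0.51 (FDR = 0.0830). Genes of the Ifi and H2 families have close paralogs, so their counts are uncertain to that degree.

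**Figure D3:**
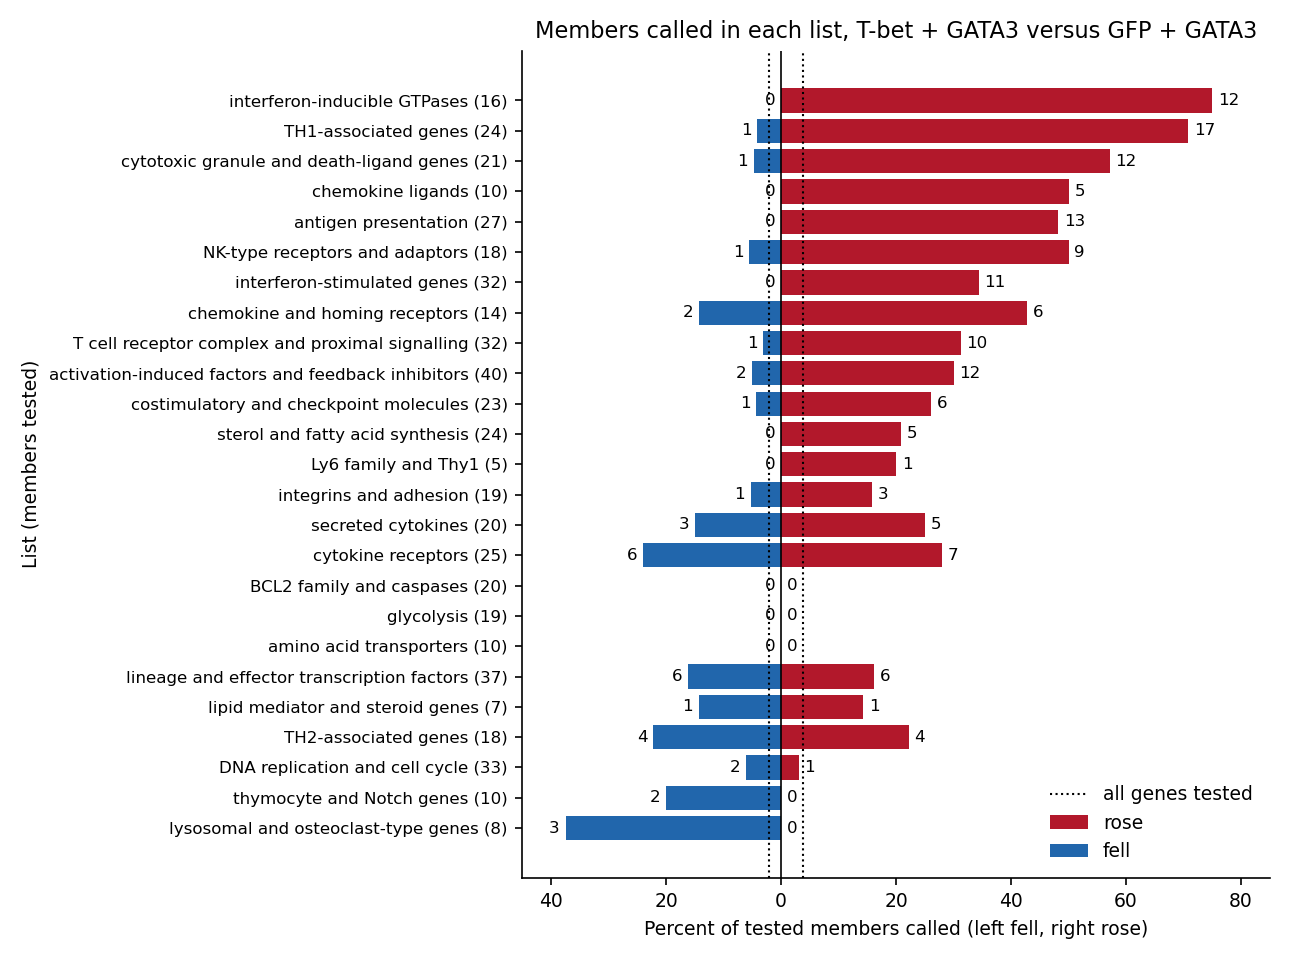
Percent of the tested members of each of 25 gene lists that rose (right, red) or fell (left, blue) at an FDR of at most 0.05, with the number of genes at the end of each bar, the number tested in brackets and dotted lines at the 3.73% and 2.05% of all genes tested. The interferon-inducible GTPases (12 of 16) and TH1-associated genes (17 of 24) have the largest shares that rose, and the lysosomal and osteoclast-type genes (3 of 8) the largest share that fell. The lists were chosen with earlier results of these data known, and in their union 125 of 472 genes tested rose and 33 fell.

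Genes of cytotoxic lymphocytes rose as well: of 21 granule and death-ligand genes tested, 12 rose and 1 fell (median log2 FC 2.55). Over the 11 with at least 10 counts in every library the median was 0.93 and 6 were called. Gzmk, a granzyme, was at 0 and 0.254 CPM without T-bet and at 39.8 and 46.5 CPM with it (log2 FC 8.07, SE 0.48, FDR = 0.00011). Ctsw, a cathepsin of cytotoxic granules, was at 0.191 and 0.254 CPM against 45.7 and 50.3 CPM (7.66, SE 0.40), and the granule protein gene Nkg7 at 0.0957 and 0.254 CPM against 20.7 and 11.8 CPM (6.34, SE 0.53). Gzma was already present at 73.6 and 80.8 CPM and stood at 336 and 352 CPM with T-bet (2.15, SE 0.17). Gzme had 0 counts without T-bet and was at 14.3 and 4.59 CPM with it, at least 72.3-fold higher, and its call was lost without GFP + GATA3 replicate 1 or 2 or T-bet + GATA3 replicate 1 (FDR of up to 0.13). Pfpl, which is related to perforin, had 1 count in all without T-bet and was at 51.8 and 29.5 CPM with it, a ratio of 997 with a counting interval of 178 to 39402. The central effectors of killing were not among them: Gzmb had 0 counts without T-bet and 2 and 0 with it, Prf1 had 7 and 5 counts without T-bet and 0 and 1 with it, and neither was tested. Fasl, the death ligand, was at 0.861 and 0.824 CPM against 8.87 and 7.78 CPM (3.29, SE 0.29), and Lamp1, of the lysosomal membrane, fell by 0.74. Of these genes 7 rose without GFP + GATA3 replicate 2.

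NK-type receptors and adaptors followed, with 9 of 18 tested rising and 1 falling (median log2 FC 2.37, and 1.56 without GFP + GATA3 replicate 2). Over the 9 with at least 10 counts in every library the median was 0.96 and 5 were called. The inhibitory receptor gene Klrc1, which encodes NKG2A, was at 1.15 and 1.08 CPM without T-bet and at 74.7 and 75.5 CPM with it (log2 FC 6.07, SE 0.34, FDR = 0.0001). Its partner chain Klrd1 (CD94) was at 0.287 and 0.634 CPM against 34.1 and 20.9 CPM (5.78, SE 0.62), and Klre1 at 0.287 and 0.127 CPM against 12.4 and 6.32 CPM (5.52, SE 0.57). Samd3, expressed in NK and cytotoxic cells, had 1 count in all without T-bet and was at 70.7 and 34.8 CPM with it, a ratio of 1271 with a counting interval of 228 to 50234. Fcer1g, the signalling adaptor of Fc receptors, went the other way, from 25.9 and 21.9 CPM to 2.60 and 1.20 CPM (log2 FC -3.73, SE 0.38). The NK cell markers given above were at 0 counts, and the summed level of that marker list, 73.6 to 80.8 CPM without T-bet and 336 to 352 CPM with it, was that of Gzma with Klra4 under 1 CPM.

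Lineage and effector transcription factors moved both ways: of 37 tested 6 rose and 6 fell, and the median log2 FC was 0.04 that ranged from -0.12 to 0.13 over the alternatives. Stat4, which carries the IL-12 signal in TH1 cells, had 0 counts without T-bet and was at 3.46 and 2.99 CPM with it, at least 27.7-fold higher. Stat5a, which carries the IL-2 signal, was at 47.1 and 54.6 CPM against 235 and 236 CPM (log2 FC 2.21, SE 0.13, FDR = 0.0001), and Bhlhe40, a cofactor of cytokine genes, at 121 and 112 CPM against 315 and 287 CPM (1.37, SE 0.12). Maf, which supports Il4 and Il10 in TH2 and other cells, was at 32.1 and 39.9 CPM without T-bet and at 1.51 and 2.19 CPM with it (log2 FC -4.24, SE 0.22, FDR = 7.7e-05). Id2 went from 173 and 137 CPM to 61.9 and 45.3 CPM (-1.54, SE 0.29) and Lef1 from 221 and 217 CPM to 127 and 82.9 CPM (-1.06, SE 0.20), and the calls of both were lost without GFP + GATA3 replicate 1 or 2, that of Id2 also without either T-bet + GATA3 library. Eomes, the other T-box factor of cytotoxic cells, had 0 counts in the 4 libraries. Without GFP + GATA3 replicate 2, 4 of the factors rose and 2 fell.

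The gene lists were chosen with earlier results of these data known, so their shares partly follow from that choice. In their union 125 of 472 genes tested rose and 33 fell. When genes were grouped by the T helper fate they are known for, 17 of 24 tested TH1-associated genes rose and 1, Id2, fell, and the median log2 FC was 2.09 (1.17 over the 17 that had 10 or more counts in each library, 11 of them called). This list shares genes with the lists above and holds Ifng, Xcl1, Ccl3, Ccl4 and the IL-18 receptor chains, and without GFP + GATA3 replicate 2 10 of its genes rose. The TH2-associated genes did not move together: of 18 tested, 4 rose (Ccr8, Il1rl1, Il4ra and Gfi1), 4 fell (Maf, Hpgds, Ccr4 and Pdlim4) and 10 did not pass, with a median log2 FC of -0.16 that ranged from -0.63 to 0.15 over the alternatives. Hpgds, the prostaglandin D2 synthase of TH2 cells, was at 261 and 210 CPM without T-bet and at 31.9 and 11.5 CPM with it (log2 FC -3.47, SE 0.54, FDR = 0.0094). Gfi1, a zinc finger repressor that supports the growth of TH2 cells, was at 16.8 and 21.8 CPM against 74.5 and 48.8 CPM (1.66, SE 0.35, FDR = 0.031) and Pdlim4 at 9.76 and 9.45 CPM against 2.81 and 3.46 CPM (-1.60, SE 0.34), and both calls were lost without GFP + GATA3 replicate 1 or 2 or T-bet + GATA3 replicate 1.

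Surface molecules that tune activation rose more often than they fell. Of 23 costimulatory and checkpoint molecules tested, 6 rose and 1 fell (median log2 FC 0.40). Tnfrsf18, which encodes GITR, was at 1.82 and 2.47 CPM without T-bet and at 71.9 and 49.3 CPM with it (log2 FC 4.78, SE 0.49, FDR = 0.0014), and Tnfrsf4, which encodes OX40, at 3.64 and 2.79 CPM against 69.6 and 31.5 CPM (3.98, SE 0.45). Cd274, which encodes PD-L1 and is itself inducible by IFN-γ, was at 254 and 257 CPM against 240 and 181 CPM and did not pass (log2 FC -0.28, SE 0.15, FDR = 0.361). Tnfsf8, the CD30 ligand gene, rose from 190 and 209 CPM to 659 and 474 CPM (FDR = 0.0022). The calls of Tnfsf14 and Cd200r1 were lost in each fit without a library of the pair, and 3 genes rose and none fell without GFP + GATA3 replicate 1.

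In the T cell receptor complex and its proximal signalling, 10 of 32 tested rose and 1, Pag1, fell (median 0.40). The adhesion receptor Cd2 was at 2.30 and 1.97 CPM against 9.95 and 14.6 CPM (log2 FC 2.54, SE 0.27, FDR = 0.0017). The kinase gene Txk, whose product acts on Ifng in T cells, was at 15.8 and 16.1 CPM against 60.8 and 53.7 CPM (1.84, SE 0.13), Themis at 16.0 and 14.7 CPM against 45.8 and 66.4 CPM (1.88, SE 0.22) and Dgkz, which ends diacylglycerol signalling, at 93.3 and 97.8 CPM against 322 and 289 CPM (1.68, SE 0.16). Lat, the central adaptor, was at 436 and 444 CPM against 519 and 464 CPM (0.16, FDR = 0.553). Without GFP + GATA3 replicate 1 or 2, 5 genes rose and none fell.

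Activation-induced factors and their feedback inhibitors had 12 of 40 tested that rose and 2 that fell (median 0.51). Both lines had received the same stimulation. Nr4a3, an orphan nuclear receptor induced by antigen receptor signals, was at 38.7 and 44.9 CPM without T-bet and at 408 and 528 CPM with it (log2 FC 3.48, SE 0.18, FDR = 7.1e-05). The phosphatase genes Dusp2 and Dusp5, which restrain MAP kinases, were at 242 and 208 CPM against 1264 and 893 CPM (2.26, SE 0.20) and at 18.9 and 16.4 CPM against 69.9 and 53.2 CPM (1.81, SE 0.20). Dusp4 fell by 0.81 and Egr3 fell by 2.48, and both calls were lost in each fit without a library of the pair. Without GFP + GATA3 replicate 1 or 2, 6 genes rose and none fell.

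Of 19 integrins and adhesion molecules tested, 3 rose and 1 fell (median 0.41). Itgal, which encodes the LFA-1 alpha chain, was at 119 and 115 CPM against 311 and 385 CPM (log2 FC 1.58, SE 0.18, FDR = 0.0023). Itga2 had 3 counts in all without T-bet and was at 3.35 and 4.19 CPM with it, a ratio of 33.8 with a counting interval of 11.2 to 167, and Itgb7, a chain of the gut-homing integrin, fell from 21.9 and 32.3 CPM to 2.16 and 4.12 CPM (-3.06, SE 0.43). Of 5 Ly6-type surface proteins tested, Ly6a, the IFN-inducible Sca-1, alone rose, going from 10.1 and 11.2 CPM to 123 and 97.2 CPM (3.37, SE 0.20, FDR = 0.00011).

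Among 8 lysosomal and osteoclast-type genes tested 3 fell and none rose (median -0.45), and these 3 calls held in each fit without a library. Gpnmb, a glycoprotein of lysosomes and melanosomes, was at 612 and 664 CPM without T-bet and at 98.2 and 107 CPM with it (log2 FC -2.64, SE 0.13, FDR = 7.1e-05). Atp6v0d2, a subunit of the proton pump of osteoclasts, was at 8.61 and 7.55 CPM against 0.541 and 0.133 CPM (-4.72, SE 0.53), and the lectin gene Clec4d at 6.89 and 10.4 CPM against 0.865 and 0.532 CPM (-3.67, SE 0.45). The summed level of the 9 macrophage and granulocyte markers was 0.634 to 0.861 CPM without T-bet and 0.333 to 0.757 CPM with it. The source of the 3 transcripts was not tested.

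Programs of survival, metabolism and growth differed in their share of calls. It was 20.8% for sterol and fatty acid synthesis and 9.09% for DNA replication and the cell cycle, against 5.77% of all genes tested. Lists of 10 to 20 genes can hold no call at the share of all genes. None of 20 BCL2 family and caspase genes (median 0.01), 19 glycolysis genes (median -0.25) or 10 amino acid transporters (median -0.05) passed the test of edgeR. An unadjusted p under 0.05 was seen in 7, 1 and 3 of them and DESeq2 called 2, 0 and 2, and the sign of the 3 medians changed between alternatives. Of 24 genes of sterol and fatty acid synthesis 5 rose, among them Insig1, Cyp51, Fdft1 and Idi1 by 0.87 to 0.97 on the log2 scale, of which none remained without GFP + GATA3 replicate 2. Of 33 genes of DNA replication and the cell cycle, 30 had a log2 FC below 0 (median -0.58), whereas 51.4% of all genes tested were above 0. Among the 33 genes Mki67 and Cdkn2c fell, and Ccnd2 rose. DESeq2 called 11 of them and 23 were called without a filter on low counts, while none fell without either GFP + GATA3 library or without T-bet + GATA3 replicate 1. Top2a was at 674 and 696 CPM without T-bet and at 161 and 400 CPM with it (-1.28, SE 0.38, FDR = 0.1), so the T-bet + GATA3 libraries differed from each other. Without T-bet + GATA3 replicate 2, in which the level was nearer to that of the control line, 13 of the 33 fell.

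Of the 10 protein-coding genes that rose most, several had no part in these lists. Slc6a12, a transporter of betaine and GABA, was at 0.957 and 1.52 CPM without T-bet and at 578 and 430 CPM with it (log2 FC 8.61, SE 0.27, FDR = 6.2e-06), and ranked 215 and 280 by TPM with T-bet. Slit3, a guidance ligand, had 1 count in all without T-bet and was at 33.5 and 42.6 CPM with it, a ratio of 1027 with a counting interval of 184 to 40596. Cacna1d, a voltage-gated calcium channel subunit, also had 1 count in all without T-bet and was at 20.5 and 13.2 CPM with it, a ratio of 419 (74.7 to 16588).

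Among the largest falls, Megf10, a phagocytic receptor, was at 57.4 and 45.1 CPM without T-bet and at 2.16 and 1.60 CPM with it (log2 FC -4.79, SE 0.48, FDR = 0.0014). Apod, a lipocalin, was at 20.9 and 21.1 CPM against 0.973 and 0.399 CPM (-5.03, SE 0.34), the WNT inhibitor Wif1 at 25.0 and 34.6 CPM against 1.08 and 1.26 CPM (-4.64, SE 0.41), and Cd180, a Toll-like receptor relative of B cells, at 13.9 and 7.10 CPM against 0.108 and 0.266 CPM (-5.62, SE 0.74). Cd180 fell beside the summed B cell markers, which were 2.41 to 2.58 CPM without T-bet and 0.433 to 0.798 CPM with it, with Blk falling (FDR = 0.0356, lost in each fit without a library of the pair) and Cd79b at 0. Myl10 and Mmp13 had 1 and 3 counts in all with T-bet, ratios of 136 (24.1 to 5414) and 53.4 (17.98 to 262), and their calls were lost without T-bet + GATA3 replicate 1, that of Mmp13 also without GFP + GATA3 replicate 2 (FDR of up to 0.058 and 0.069).

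Many of the genes past the stricter threshold lay beside another that moved the same way. Of the 294 genes up, 107 (36.39%) had another gene up with its start within 200 kb, against 7.58% of the other genes tested, and of the 127 genes down 25 (19.69%) did, against 3.412%. The clusters included families of tandem copies: the Ifi200 genes of chromosome 1 (Ifi204, Mnda, Mndal, Ifi203 and Ifi205), the GTPases of chromosome 11 (Irgm1, Tgtp1, Tgtp2 and Ifi47, with the transcript model RP23-14F5.7), the lectin-like receptors of chromosome 6 (Klre1, Klrd1, Klrc2 and Klrc1, beside Olr1), and the chemokines Ccl9, Ccl3 and Ccl4. In the IL-1 receptor family cluster 3 genes tested in a row, Il1rl1, Il18r1 and Il18rap, were up. Il1r1, a gene of the same family that is not in this cluster, fell, as given above. Among the genes down, Adora3, an adenosine receptor gene at 16.0 and 32.9 CPM without T-bet and 3.35 and 3.39 CPM with it, lay beside Tmigd3, with which it shares sequence.

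**Figure D4:**
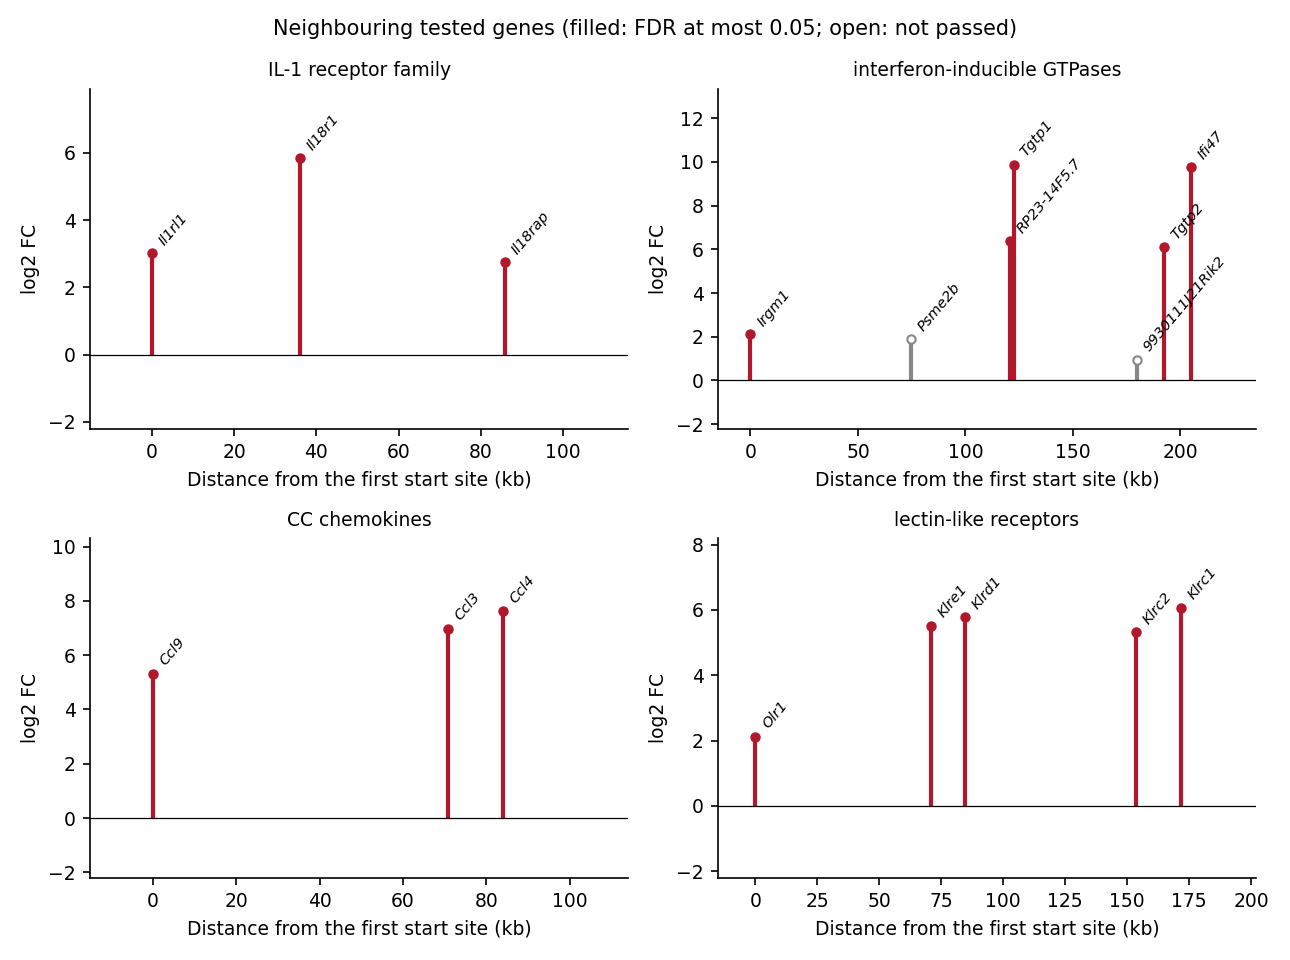
Log2 FC of the tested genes in 4 clusters against the distance in kb of their start sites from that of the first gene up, with filled red points for genes that rose at an FDR of at most 0.05 and open grey points for genes that did not pass. In the IL-1 receptor family the values are 3.02 for Il1rl1, 5.85 for Il18r1 and 2.75 for Il18rap, and among the chemokines 5.32 for Ccl9, 6.98 for Ccl3 and 7.63 for Ccl4.

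Over the promoters of all changed genes the T-box letters were not frequent. GGTGTGA stood in 5.116% of the 215 matched promoters of genes up, in 0% of the 91 of genes down, in 3.407% of the 8951 of other genes tested and in 3.979% of all 32851 promoters, and GGTGTG in 19.53%, 21.98%, 17.08% and 19.05%. The GATA letters AGATAA or TGATAA stood in 18.6% of promoters of genes up and 24.18% of genes down, against 9.943% of the other genes tested and 18.61% of all promoters. Both directions were above the other genes tested. The genes up were near all promoters, and the genes down were above them. The spaced pair of GAAA stood in 10.7% of promoters of genes up and 4.396% of genes down, against 2.927% of the other genes tested. In the interferon lists GGTGTGA stood in 18.18% of 22 matched interferon-stimulated genes, 0% of 10 GTPases and 0% of 21 antigen presentation genes. In the same order GGTGTG stood in 36.36%, 20% and 9.524%, and the GATA letters in 18.18%, 50% and 9.524%. These are counts of letters in a window of 300 bases and say nothing of binding.

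The effect of T-bet was then compared with that in cells without the GATA3 vector, T-bet + Plum against GFP + Plum, with which it shares no library. These cells still express endogenous Gata3 according to the study. The values therefore do not show the effect of T-bet in the absence of GATA3. Of the 294 genes up with GATA3, 289 were also higher without it and 240 passed the FDR there, and of the 127 genes down 124 were also lower and 85 passed. At an FDR of at most 0.05, 6.2% of all genes tested changed in the comparison without GATA3. Ifng was at 0.186 and 0.698 CPM in GFP + Plum and at 3969.9 and 2788 CPM in T-bet + Plum (log2 FC 12.88), against 12.54 with GATA3. Maf fell by 3.89 without GATA3 and 4.24 with it. Among the lists, the number of GTPases that rose was 12 in each comparison, and the TH1-associated genes that rose were 16 without GATA3 and 17 with it.

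The difference between the effects was tested by the interaction term, and no gene passed an FDR of at most 0.05 with edgeR (smallest FDR 0.212), while 381 genes (2.58%) had an unadjusted p under 0.05 and DESeq2 called 15. The median SE of the interaction was 0.33 on the log2 scale. On simulated counts the test found 95% of interactions of 3 on the log2 scale, 67.5% of those of 2 and 22.5% of those of 1. It found 57.5% of those of -2 and 15% of those of -1, with 12.7% false calls, and larger negative interactions were not simulated. Differences of 1 in size were therefore mostly not detectable. The simulation changed 40 genes at each size, in T-bet + GATA3 alone. The share found under an FDR depends on how many genes truly differ, so it may be lower in the real counts. Among the 5 protein-coding genes with the smallest unadjusted p was Nr4a3, which rose by 3.48 with GATA3 and by 2.10 without it, from 84.0 and 99.3 CPM in GFP + Plum to 375 and 411 CPM in T-bet + Plum (unadjusted p = 0.00031). The control line GFP + GATA3 was lower than GFP + Plum, and the T-bet lines overlapped. Mylk4, a kinase gene, was at 34.6 and 32.7 CPM against 59.6 and 54.0 CPM with GATA3 and at 44.9 and 51.9 CPM against 30.4 and 29.0 CPM without it, so that the addition of T-bet went with opposite directions (0.75 and -0.71, unadjusted p = 4.9e-05, adjusted p = 0.363 by edgeR). Ttn rose by 4.78 without GATA3, and had a log2 FC of 1.19 with it, from 8.71 and 18.8 CPM. Slc47a1 fell by 4.31 with GATA3 and had a log2 FC of 0.32 without it. It was near the floor, at 1.67 and 1.83 TPM in the GFP + GATA3 libraries and 0 and 0.137 TPM in the T-bet + GATA3 libraries. Its log2 FC with GATA3 lay between -8.75 and -3.62 over the alternatives.

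**Figure D5:**
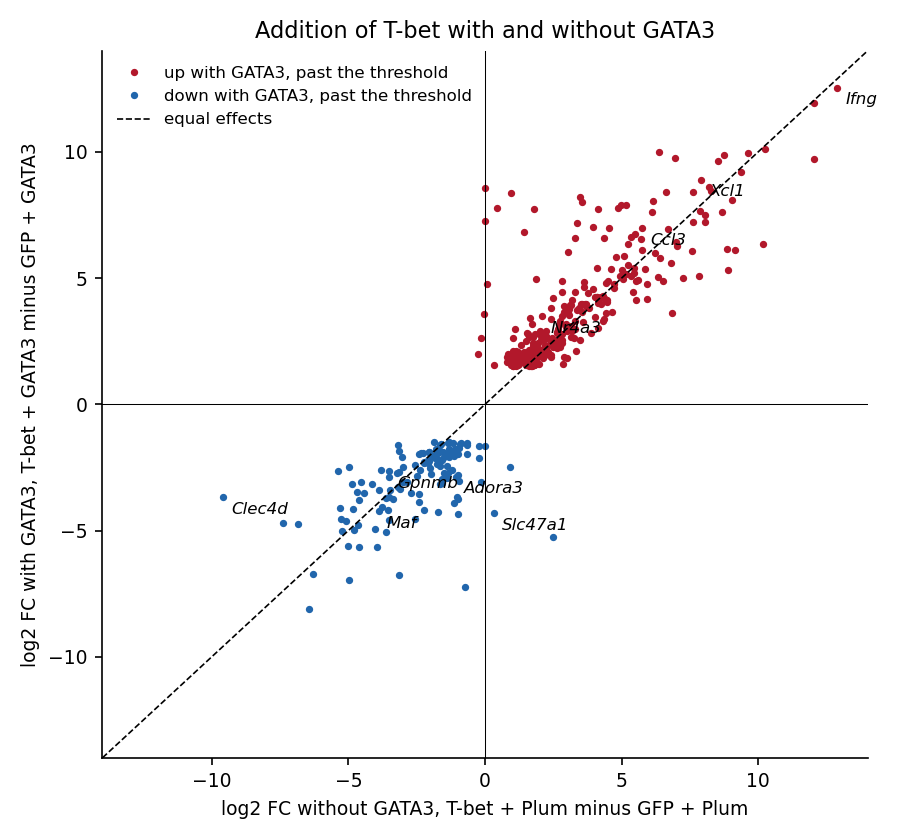
Log2 FC of T-bet with the GATA3 vector (vertical) against that without the vector, in cells with endogenous Gata3 (horizontal). Shown are the 421 genes past the stricter threshold with the vector, chosen on the vertical value. Of the genes up (red) 289 of 294 lie to the right of 0 and of the genes down (blue) 124 of 127 lie to the left, and the dashed line marks equal effects.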

How the data were processed

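Total RNA of 8 EL4 libraries (4 lines, 2 each) was sequenced by the authors as poly-A selected paired-end RNA-seq. Per the labels the authors used FastQC, Trim Galore and kallisto, and deposited, per transcript and library, estimated counts (expected counts, not normalized), TPM and effective lengths. The study's methods name another Gencode release than the labels, M20 against M18, both on GRCm38.

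Here the deposited estimated counts of 136535 transcripts were summed per gene and rounded. edgeR 4.0.16 (R 4.3.3) was run with TMM, filterByExpr and the quasi-likelihood test in one fit of the 8 libraries with 4 residual degrees of freedom, and p-values were adjusted over the 14791 genes tested (FDR, Benjamini-Hochberg). Rose and fell mean an FDR of at most 0.05, and the stricter threshold adds a log2 FC above 1.5 in size. The SE is approximate, obtained as the absolute log2 FC over the root of the F statistic. The deposited TPM were used for ranks, and effective lengths for an alternative only. A line at 0 counts was set against 3 counts over the group, and where a line held 1 to 3 counts the ratio has a 95% interval; both cover counting error only. No median of a list changed when its genes at 0 counts in a line were set to their bound. A median does not depend on the size of its extreme values, so this is no test of these folds. On simulated counts of the same contrast the test found 100% of genes changed by 3 on the log2 scale, 77.5% by 2, 65% by 1, 70% by -2 and 37.5% by -1, with 7.89% false calls. Changes were simulated only in genes with a mean of at least 1 CPM.

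The members and gene lists were chosen with earlier results of these data known. Genes named were Tbx21, Gata3, Ifng, Il4, Il5, Il13, Il10 and Maf, the 10 protein-coding genes that rose most and the 10 that fell most past the stricter threshold (no overlap, at least 5 CPM in the higher line), in each list up to 4 that rose most, 4 that fell most and 2 abundant ones that did not pass, and the 5 with the smallest interaction p. Of these not all are printed, and other members of lists and clusters are named to complete a count or a locus and were chosen after their values were seen. Positions are those of Gencode M21 on GRCm38. The study describes 3 harvests in a legend, and 2 libraries a line were analysed here. Results for some members of the lists are not reported here.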

Additional observations from a re-analysis of the deposited data

How the results depend on the processing

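Among the genes named and tested, the direction held in each alternative except for Il5, whose log2 FC was -0.95 without T-bet + GATA3 replicate 1 and up to 3.65 when other libraries were left out. At the stricter threshold and at the FDR alone, 813 and 1936 genes were called without a filter on low counts, where 30930 genes were tested, 222 and 675 with at least 10 counts in every library, 470 and 1158 with DESeq2, 398 and 749 with transcript length offsets and 440 and 888 in the 4 libraries alone. Leaving out each library gave 197 to 475 and 250 to 1021 genes, lowest without GFP + GATA3 replicate 2. Differing effects of T-bet with and without GATA3 were called for 15 genes by DESeq2, 145 without a filter and 0 to 3 when libraries were left out, and for 0 in the other alternatives. A log2 FC above 1 gave 626 genes. With the replicate number as a block, 531 and 1379 genes were called. Deviations of same-numbered libraries correlated at -0.05 to 0.30 between lines (0.15 for the lines compared here), not all above 0.1, and no source used here ties a number to a shared harvest, so the block was kept as an alternative. With 2 libraries a line, changes of 1 on the log2 scale were often missed on simulated counts, and leaving out a library assumes that the lone library varies like the other lines. The cause of these shifts was not tested beyond the number of genes or libraries that each alternative changes.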

Other observations

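A few smaller groups moved as well. Of 10 thymocyte and Notch genes tested 2 fell and none rose (median log2 FC -0.71, with 9 of 10 below 0): Lmo2, a partner of GATA factors in early thymocytes, was at 4.98 and 4.18 CPM without T-bet and at 0.541 and 0.599 CPM with it (-2.97, SE 0.48, FDR = 0.0108 by edgeR), and Tcf12, an E protein, was at 142 and 159 CPM against 88.1 and 106 CPM (-0.63, SE 0.14). Neither call held when a library of the GFP + GATA3 line or T-bet + GATA3 replicate 1 was left out. Of 7 lipid mediator and steroid genes tested, Ptger4, a prostaglandin E2 receptor gene, rose from 73.7 and 64.9 CPM to 154 and 169 CPM (1.22, SE 0.13), while Hpgds fell.

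Slamf7 and Cd84, receptor genes on chromosome 1, were chosen after their values were seen. Slamf7 was at 2.01 and 1.84 CPM without T-bet and at 28.8 and 23.7 CPM with it (3.77, SE 0.25), and Cd84 was at 28.7 and 27.0 CPM against 165 and 183 CPM (2.65, SE 0.15). Among the transcripts that do not encode proteins, 12 lincRNAs rose and 9 fell.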
